A study of Arabidopsis thaliana with 6 samples.

Results

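The genes described here are 10 cation/proton exchangers of the CHX family, CHX3 (AT5G22900), CHX8 (AT2G28180), CHX13 (AT2G30240), CHX14 (AT1G06970), CHX15 (AT2G13620), CHX19 (AT3G17630), CHX21 (AT2G31910), CHX23 (AT1G05580), CHX25 (AT5G58460) and CHX28 (AT3G52080), out of 27655 genes with an abundance value. They were taken by gene identifier, without a threshold on any measured level, but with earlier results of these data known. The same table holds 18 other CHX genes, so that the 10 belong to a family of 28. RNA was sequenced from sperm cells (SCs, n = 3 libraries) and vegetative nuclei (VN, n = 3 libraries), the cell type and the nucleus that share the mature pollen grain of Arabidopsis thaliana. All plants carried both transgenes of one marker line in a wild-type (WT) background: MGH3p::MGH3-GFP, which marks the sperm nucleus, and ACT11p::H2B-mRFP, which marks the VN. They were grown for 8 weeks with 8 h of light, then moved to 16 h of light to flower. Pollen was broken open and sorted by fluorescence, and libraries were made by the Smart-seq2 method. The SC libraries therefore hold RNA of whole cells and the VN libraries RNA of nuclei, and these differences in RNA source cannot be told apart from the difference between the cell types. The paper's figure legends call the replicates biological. Its methods state that a fixed number of cells or nuclei was sorted for each replicate, and that sorting was done in batches. Neither the paper nor the labels say whether separate plants, pollen collections or sorting batches gave the replicates. The p-values therefore measure the spread between these libraries.

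CHX proteins are membrane carriers that move potassium or other monovalent cations against protons. Work in Arabidopsis places them in the plasma membrane and in endomembranes such as the endoplasmic reticulum, prevacuolar compartments and the vacuole, where they set the cation content and the pH of the compartment. The family is larger in flowering plants than in animals or yeast, and many of its genes are known from pollen. The pollen tube is the outgrowth of the vegetative cell, and its growth depends on potassium uptake, on turgor and on local pH. The sperm cells are carried within it as passengers.

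The 10 genes lie on all chromosomes but chromosome 4 and encode proteins of 800 to 867 residues (TAIR10.1 annotation). CHX23 lies on chromosome 1 at 1665356 to 1668924 on the minus strand, and CHX14 on chromosome 1 at 2137871 to 2140975 on the plus strand. On chromosome 2, CHX8 lies at 12010994 to 12013739 on the minus strand and CHX15 at 5677908 to 5680801 on the plus strand. CHX28 lies on chromosome 3 at 19314966 to 19317988 on the plus strand.

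The windows upstream of the annotated gene starts are shown for 3 genes that were higher in VN, CHX23, CHX28 and CHX15, because they set side by side a gene with and genes without a motif that was frequent in the family. Each window is 250 bases long, read 5′ to 3′ on the strand of the gene from the TAIR10.1 genome, and overlaps no annotated gene. The capitals mark a MEF2-type CArG box, the kind of site bound by the MIKC* MADS-domain factors of pollen.
CHX23, chr1:1668925-1669174, minus strand: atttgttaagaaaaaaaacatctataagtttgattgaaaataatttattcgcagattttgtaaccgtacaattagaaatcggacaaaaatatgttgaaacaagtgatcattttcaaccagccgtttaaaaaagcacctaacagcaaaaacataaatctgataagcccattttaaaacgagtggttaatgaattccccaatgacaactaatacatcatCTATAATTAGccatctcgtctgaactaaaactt
CHX28, chr3:19314716-19314965, plus strand: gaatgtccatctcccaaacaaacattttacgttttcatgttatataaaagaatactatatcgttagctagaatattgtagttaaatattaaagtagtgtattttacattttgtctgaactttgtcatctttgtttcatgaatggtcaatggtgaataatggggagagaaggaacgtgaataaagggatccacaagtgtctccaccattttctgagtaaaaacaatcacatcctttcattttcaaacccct
CHX15, chr2:5677658-5677907, plus strand: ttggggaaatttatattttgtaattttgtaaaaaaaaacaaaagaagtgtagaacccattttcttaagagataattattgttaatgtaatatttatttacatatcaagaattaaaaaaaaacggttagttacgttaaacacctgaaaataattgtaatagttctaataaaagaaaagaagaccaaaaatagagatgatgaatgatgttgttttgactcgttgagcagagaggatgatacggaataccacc

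The box was present in windows of the same length upstream of 8 of the 28 CHX genes, 28.6%, and in 2.15% of the windows of all 27443 genes with one. Among the 10 genes the box was found upstream of CHX23 and CHX3, and among the other 18 upstream of CHX4, CHX6B, CHX7, CHX20, CHX24 and CHX27. Windows of CHX genes that overlap an annotated gene were kept in this count. Among the 8 with the box, the window of CHX4 overlaps AT3G44890 and that of CHX7 overlaps AT2G08240. The windows of CHX5, CHX14, CHX19 and CHX21, without the box, also overlap annotated genes. The motif is its own reverse complement in pattern, so that both strands were searched and each site was counted once. The 8 sites are printed in 30 bases each, with the box in capitals, because their share in the family was the furthest above that of all genes among the 4 motifs searched.
CHX23: aatacatcatCTATAATTAGccatctcgtc
CHX3: tcattatttaCTATTATTAGggttttaaaa
CHX4: acaagattgaCTATTTTTAGagagttgttg
CHX6B: tacccttatcCTAATTTTAGagatcctttg
CHX7: aggagtttcaCTAATTTTAGgataaacatc
CHX20: tagatggtttCTAATTATAGcacccaaaat
CHX24: tttaattatgCTAAAAATAGgcgtctatcg
CHX27: aattaaacccCTAAATATAGctagagagag
The end of the box lay 24 bases before the annotated start of CHX23, 25 before that of CHX27 and 173 before those of both CHX3 and CHX4. For CHX3, CHX4 and CHX7 the annotated gene starts at the start codon, so that the true distance to the transcript start is not given by the annotation.

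Among all genes, 4.59% of those called higher in VN, 1.06% of those called higher in SCs and 1.74% of those tested and not called held the box. Of the 8 CHX genes with the box, 5 were called higher in VN (CHX23, CHX24, CHX6B, CHX27 and CHX7), 1 was called higher in SCs (CHX20), and CHX3 and CHX4 were near 0 in all libraries. Calls in VN were common in the family with or without the box, with 18 of all 28 CHX genes called higher in VN and 2 higher in SCs. Whether the box goes with the call within the family was not tested. CHX8, CHX14, CHX28 and CHX15 were high in VN and had no box in the window, which says only that these letters are not there. Of the other motifs searched on both strands, the pollen element GTGA was in 8 of the 10 windows against 77.5% of all, AGAAA in 10 of 10 against 82.5%, and AACCG, a core of DUO1 binding sites, in 2 of 10 against 23.2%.

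RNA levels are given in TPM (transcripts per 1000000), which divides by transcript length so that genes can be compared within a library. CHX23 and CHX8 made up most of the exchanger RNA in VN, CHX14, CHX28 and CHX15 followed at a lower level, and CHX21, CHX25, CHX19, CHX13 and CHX3 were low or near 0. No gene of the 10 was higher in SCs. Summed over the 10, VN libraries held 3059 ± 302 TPM (SD, n = 3; range 2710 to 3244) and SC libraries 47.2 ± 4.03 TPM (SD, n = 3; range 43.0 to 51.0). CHX23 and CHX8 together held 89.8 ± 2.10% of the VN sum (SD, n = 3). In pools of sorted cells or nuclei, a change in the number of contributing cells and a change in the RNA per cell cannot be told apart.

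**Figure D1:**
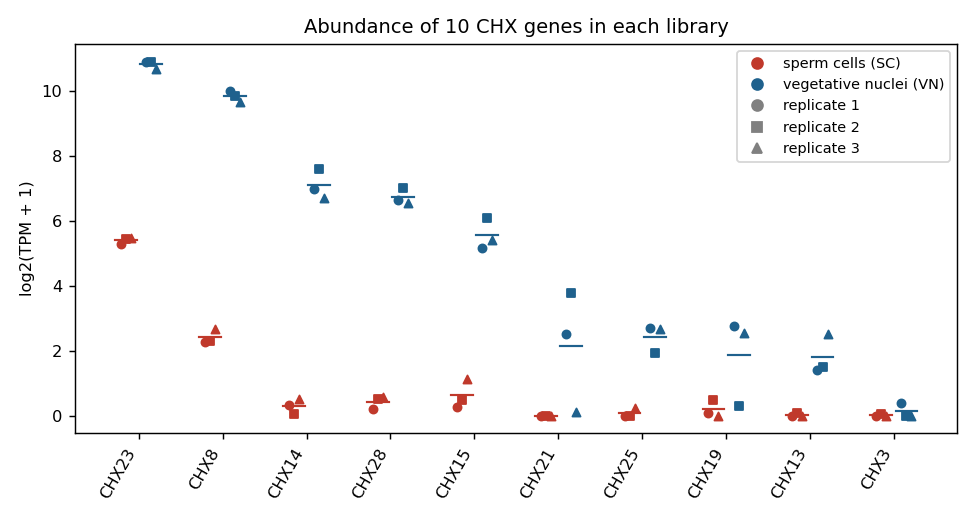
Level of the 10 CHX genes in each library, as log2(TPM + 1), with genes ordered by their mean TPM in VN. Each point is 1 library (red, SCs; blue, VN; the shape gives the replicate) and each bar is the mean of 3 libraries. CHX23 and CHX8 stand highest in VN, and the 3 VN points of CHX21 and of CHX19 are spread widely.

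Genes that reached 1 TPM in 2 or more of the 6 libraries were tested by limma on log2(TPM + 1). A gene was called differentially expressed (DE) when its p, adjusted over all tested genes by the Benjamini-Hochberg method, was under 0.01 and its log2 fold change was over 1 in size. Fold changes are SC minus VN on this scale, so that negative values are higher in VN, and changes of low genes are understated. Of the 10 genes, 7 were called DE and higher in VN, 2 were tested and not called (CHX19 and CHX21), and CHX3 did not pass the filter. Of all 10955 tested genes, 64.9% were called in either direction, 35.6% as higher in VN and 29.2% as higher in SCs, and the median log2 fold change of all tested genes was -0.55. The larger number of VN calls among all genes depended on the scale, as genes higher in SCs made up 45.1% of calls here, 51.3% with quantile normalization, 53.8% with median centring and 53.0% with the most abundant genes removed. Only CHX23 and CHX8 were above 1 TPM in all 6 libraries. The other 7 tested genes passed the filter through their VN values, which favours a difference. The libraries of the 2 groups did not overlap for 8 of the 10 genes, with VN higher in each, against 41.8% of tested genes with VN higher and 77.3% without overlap in either direction. With 3 libraries against 3, the exact permutation test (two-sided) cannot go below p = 0.1, which was its value for each of these 8.

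CHX23 was the most abundant of the 10 in both cell types. It is known from genetics as a pollen carrier that acts together with CHX21, since Arabidopsis pollen lacking both makes tubes that fail to turn towards ovules. Its levels were 1925 TPM, 1907 TPM and 1645 TPM in VN replicates 1, 2 and 3, where it ranked between 96 and 105 among all genes. In SCs they were 38.5, 42.3 and 43.3 TPM. The groups lay far apart, with a mean in VN 44.1 times that in SCs (log2 fold change -5.43, SE 0.16, limma adjusted p = 2.51e-07).

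CHX8 followed CHX23 in VN, although no role for it is stated here. It stood at 1018, 929 and 811 TPM in the VN libraries. The SC libraries held 3.79, 3.96 and 5.38 TPM. Every VN library was above every SC library, and the ratio of the means was 210 (log2 fold change -7.42, SE 0.21, limma adjusted p = 2.51e-07). CHX8 thus made up 30.0% of the summed TPM of the 10 genes in VN and 9.23% in SCs, while CHX23 made up 59.7% and 87.8%. VN levels of CHX23 were above those of CHX8 in each of the 3 libraries, by 1.99 times on the means.

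CHX14, a potassium carrier of the plasma membrane that has been linked to potassium export in Arabidopsis roots, was the next in VN. It was measured at 126, 194 and 104 TPM in VN and at 0.27, 0.03 and 0.42 TPM in SCs. Its SC libraries were all below 1 TPM (log2 fold change -6.81, SE 0.31, limma adjusted p = 5.51e-07). CHX28 was at 99.1, 129 and 93.9 TPM in VN and at 0.15, 0.42 and 0.50 TPM in SCs. Its difference was of similar size (log2 fold change -6.32, SE 0.27, limma adjusted p = 3.97e-07). CHX14 was above CHX28 in each VN library, but their ranges overlapped. CHX28 shares 252 bp at one end with AT3G52090 on the opposite strand, and Smart-seq2 reads carry no strand. AT3G52090 was itself higher in SCs, with 4.43 ± 1.93 TPM there and 0.477 ± 0.226 TPM in VN (SD, n = 3 for both; log2 fold change 1.82, SE 0.38, limma adjusted p = 0.00278; not called in 3 of 14 alternatives, among them without SC replicate 1 or 3, at most 0.0164).

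CHX15 was below CHX28 in every VN library. It measured 35.0, 67.4 and 42.0 TPM in VN and 0.20, 0.38 and 1.21 TPM in SCs. The lowest VN library was well above the highest SC library (log2 fold change -4.94, SE 0.37, limma adjusted p = 6.60e-06). VN replicate 2 was the highest library for CHX14, CHX28 and CHX15, while CHX23 and CHX8 were highest in VN replicate 1.

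CHX25 was low but present in all VN libraries, at 5.50, 2.79 and 5.30 TPM. In SCs it was listed at 0 in replicates 1 and 2 and at 0.17 TPM in replicate 3 (log2 fold change -2.35, SE 0.34, limma adjusted p = 3.24e-04). CHX13, a high-affinity potassium uptake carrier of Arabidopsis roots, was at 1.67, 1.81 and 4.71 TPM in VN and at 0, 0.07 and 0 TPM in SCs. It passed the threshold (log2 fold change -1.78, SE 0.38, limma adjusted p = 0.00306), but its call did not hold in 5 of 14 alternatives. It was lost without any of the 3 SC libraries (limma adjusted p = 0.0136 without replicate 1, 0.0120 without replicate 2 and 0.0136 without replicate 3), with all genes above 0 tested (0.0242) and with libraries centred on their medians (0.0151).

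CHX21, the partner of CHX23 in pollen tube guidance, was listed at 0 in all SC libraries and differed strongly among VN libraries, at 4.67, 12.8 and 0.07 TPM. The groups did not overlap, but the gene did not pass the threshold (log2 fold change -2.13, SE 0.82, limma adjusted p = 0.0438). VN replicate 3 was the low library. Without it the log2 fold change was -3.15 and CHX21 was called (limma adjusted p = 5.24e-04). Without VN replicate 1 or 2 the gene did not pass the filter and could not be tested. The annotated gene overlaps AT2G08485 on the same strand and AT2G31900, AT2G08490 and AT2G31920 on the opposite strand, the longest single overlap being 965 bp. Of these, AT2G31900 on the opposite strand was higher in VN, with 2.51 ± 0.946 TPM there and 0.138 ± 0.0159 TPM in SCs (SD, n = 3 for both; log2 fold change -1.59, SE 0.33, limma adjusted p = 0.00257; not called in 3 of 14 alternatives, among them without SC replicate 2, at most 0.0251), and AT2G31920 was listed at 0 in all libraries. Reads from the stretches shared with genes on the opposite strand cannot be told apart without strand.

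CHX19, an endosomal carrier that acts with CHX17 and CHX18 in Arabidopsis reproduction, was split in the same way by another library. Its VN values were 5.84, 0.23 and 4.83 TPM, and its SC values 0.06, 0.40 and 0 TPM. VN replicate 2 fell within the SC range, and CHX19 was not called (log2 fold change -1.68, SE 0.64, limma adjusted p = 0.0412; exact permutation p = 0.2, two-sided). Without VN replicate 2 the log2 fold change was -2.47 with a limma adjusted p = 3.26e-04. Without VN replicate 1 or 3 CHX19 did not pass the filter and could not be tested. VN replicate 2 had the fewest genes above 0 of the 6 libraries, 10202, and was also the library with the most CHX21. CHX19 shares bases with AT3G17626 on the same strand, which reached at most 1.13 TPM in SCs and 0.841 TPM in VN. It also overlaps AT3G03515 on the opposite strand, and reads from that stretch cannot be told apart without strand. CHX3 was at 0.30 TPM in VN replicate 1 and 0.02 TPM in SC replicate 2, and was listed at 0 in the other 4 libraries.

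In the order of VN levels, CHX23, CHX8, CHX14 with CHX28, and CHX15 had VN ranges that did not overlap from one step to the next. CHX21, CHX25, CHX19 and CHX13 followed with overlapping ranges, and their order was not the same in all 3 libraries. The plot of fold changes shows that 6 genes, CHX23, CHX8, CHX14, CHX28, CHX15 and CHX25, were called in all 14 alternatives. No alternative reversed the direction of any gene.

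**Figure D2:**
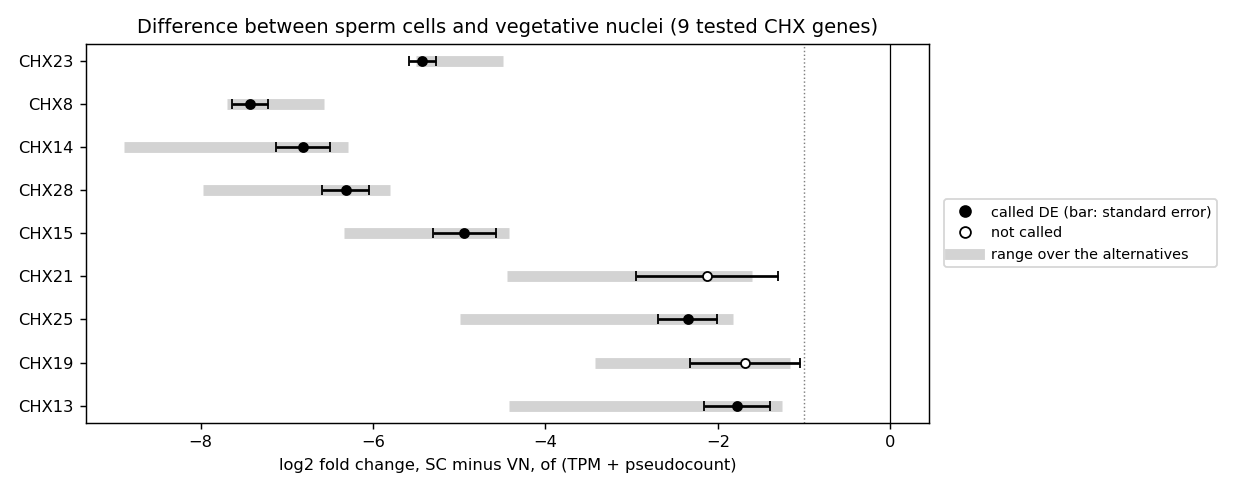
Difference between SCs and VN for the 9 tested genes, as a log2 fold change (SC minus VN) on the horizontal axis, with genes ordered by VN level. Points are the estimates with standard errors (filled, called DE; open, not called), grey bars the range over the alternatives, and the dotted line the threshold of -1; all bars lie below 0, and those of CHX21, CHX19 and CHX13 come nearest to it.

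The low SC values were set beside genes known to mark the vegetative cell. All 16 vegetative cell markers on the list were higher in VN, and their SC mean was 0.174% to 8.60% of their VN mean (median 2.14%). For the 9 CHX genes with a VN mean of at least 1 TPM, it was 0% to 4.21% (median 0.796%), with 2.27% for CHX23 and 0.476% for CHX8. The SC values of the exchangers thus lay within or below the range of the vegetative markers, and the part of RNA carried over from the vegetative cell in them was not tested. All 10 sperm cell markers were higher in SCs, with VN means at 0.346% to 7.82% of the SC means. ACT11 and MGH3, 1 of each list, also drive the transgenes used for sorting. Green tissue markers summed to at most 5.43 TPM and tapetum markers to at most 2.13 TPM in any library, and LHCB1.1, ACOS5 and LAP5 were listed at 0 in all 6. Of these lists, only RBCS2B, a small subunit of Rubisco, was tested, and it was called higher in SCs (4.13, 1.47 and 3.84 TPM, listed at 0 in VN; log2 fold change 1.98, SE 0.37, limma adjusted p = 0.00151; not called at 0.0144 when all genes above 0 were tested). Between 10202 and 15289 genes were above 0 in each library, and the 10 most abundant genes of a library held 42.8% to 49.9% of all TPM in SCs and 12.7% to 15.2% in VN. With these genes left out and the rest rescaled, the 10 exchangers summed to 89.4 TPM in SCs and 3543 TPM in VN.

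Some closely related exchangers stood at very different levels in VN, and others did not. The proteins of the 10 genes were 26.8% to 72.2% identical over aligned residues (45 pairs, median 30.7%), and the pairs CHX13 with CHX14 (72.2%) and CHX21 with CHX23 (70.5%) were the closest. Within both pairs 1 gene was abundant and the other was low. CHX23 was above CHX21 by 412, 149 and 23654 times in VN replicates 1, 2 and 3, the last resting on a CHX21 value of 0.07 TPM. CHX14 was above CHX13 by 75.5, 107 and 22.0 times. CHX25 is closest to CHX24, which is not among the 10, with 79.8% identical residues, and CHX24 was above it by 44.4, 109 and 35.5 times. In each of these 3 pairs all 3 VN values of the one gene were above all 3 of the other. The closest pair of the whole family, CHX10 and CHX11, with 89.0% identical residues and neither among the 10, differed less, at 71.9 and 156 TPM on the means. The coding sequences of the pairs CHX21 with CHX23, CHX13 with CHX14 and CHX25 with CHX24 were 72.0%, 72.5% and 83.0% identical. Those of CHX10 and CHX11 were 91.7% identical. A share of reads assigned to the wrong copy was not measured for any of these pairs.

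**Figure D3:**
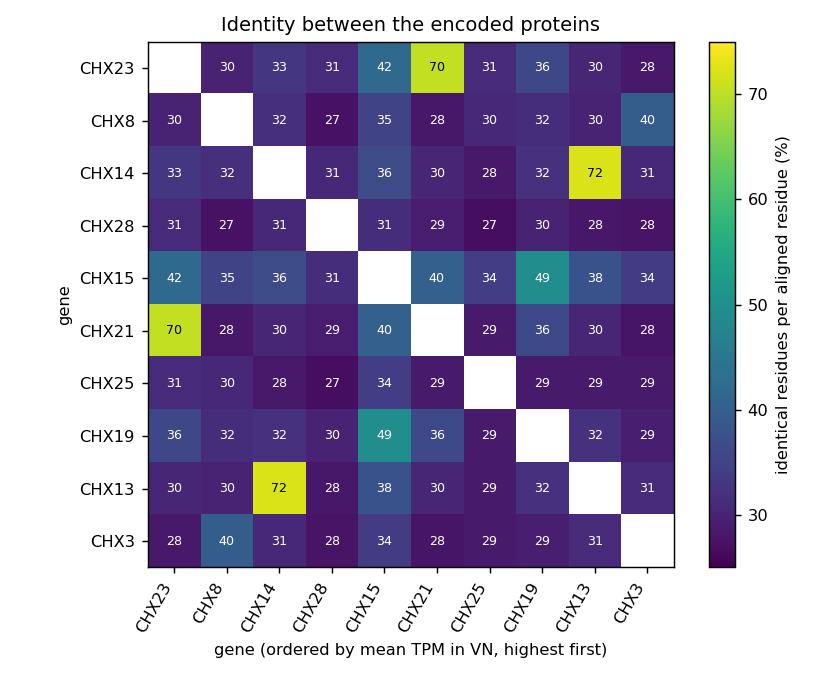
Identity between the proteins encoded by the 10 genes, as the percentage of identical residues per aligned residue in each pair, with genes ordered by mean TPM in VN on both axes. The pairs CHX13 with CHX14 and CHX21 with CHX23 stand out at 72.2% and 70.5%, against a median of 30.7% over 45 pairs.

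Neighbours on the chromosome also differed to unequal extents. CHX8 lies 1037 bp from CHX7 on the same strand, the pair being 43.4% identical in protein, and CHX8 was above CHX7 by 213, 536 and 122 times in the VN libraries. CHX7 was at 4.79, 1.73 and 6.65 TPM there. CHX3 lies 1058 bp from CHX9 on the opposite strand, and both were near 0, with CHX9 reaching 1.35 TPM in VN replicate 1 only. Among neighbours outside the 10, CHX6A was 1.53 times CHX5 and 3.05 times CHX6B on the VN means, and CHX11 was 2.17 times CHX10. CHX27 was 13.1 times CHX26, and CHX11 was 274 times CHX12, which reached at most 1.08 TPM in VN. CHX4, next to CHX12, was listed at 0 in all VN libraries. CHX3 and its closest relative CHX4, 73.2% identical, were both near 0. The closest relative of CHX19 is CHX18 (63.8%). CHX19 was not called, while CHX18 was called higher in SCs, at 13.7, 9.74 and 15.0 TPM in SCs against 0.38, 0.03 and 0 TPM in VN, and the difference between the 2 genes was not tested.

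**Figure D4:**
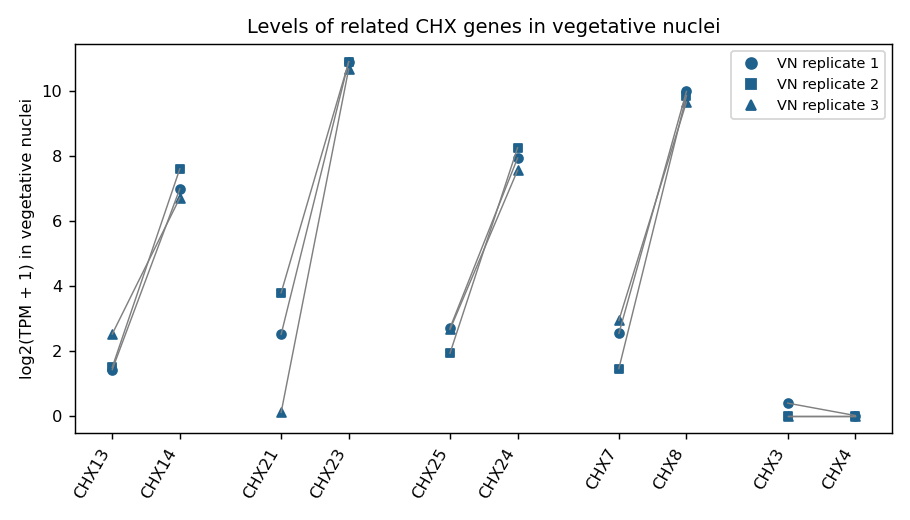
Levels of related CHX genes in VN, as log2(TPM + 1), for pairs close in protein sequence (CHX13 and CHX14, CHX21 and CHX23, CHX25 and CHX24, CHX3 and CHX4) or on the chromosome (CHX7 and CHX8). Each point is 1 VN library and lines join the values of 1 library; in the first 4 pairs drawn all 3 lines rise steeply, and in the last both genes lie near 0.

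The 18 other CHX genes showed both patterns. Of these, 11 were called higher in VN, 2 higher in SCs (CHX18 and CHX20), 1 was not called (CHX16), and CHX4, CHX9, CHX12 and CHX17 did not pass the filter. The median log2 fold change of the 14 tested was -5.54, against -4.94 for the 9 tested among the 10 and -0.55 for all tested genes. Of the 14, only CHX5 and CHX6A were above 1 TPM in every library. CHX16, CHX18 and CHX20 passed the filter through their SC values and the rest through their VN values, which favours a difference. CHX6A and CHX5, neighbours on chromosome 1, were the most abundant of them in VN at 586 ± 69.4 and 382 ± 44.5 TPM (SD, n = 3). CHX24, CHX6B, CHX2 and CHX11 were at 246 ± 58.6, 192 ± 43.9, 164 ± 34.2 and 156 ± 40.7 TPM. CHX10 was at 71.9 ± 6.85 TPM, CHX27 at 55.2 ± 7.17, CHX1 at 11.3 ± 4.89, CHX7 at 4.39 ± 2.48 and CHX26 at 4.20 ± 1.91. The 10 genes together held 62.1 ± 0.906% of the TPM of all 28 in VN and 59.6 ± 3.02% in SCs (SD, n = 3 each).

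The exchangers higher in SCs were outside the 10. CHX18 had a log2 fold change of 3.60 (SE 0.32, limma adjusted p = 1.77e-05). It shares 2956 bp with an annotated gene on the opposite strand, and reads from that stretch cannot be told apart without strand. CHX20, known for its role in osmotic control in guard cells, was at 2.36, 1.48 and 3.84 TPM in SCs and at most 0.132 TPM in VN (log2 fold change 1.71, SE 0.35, limma adjusted p = 0.00236; not called at 0.0216 when all genes above 0 were tested). CHX16 was at 1.28, 0.63 and 1.02 TPM in SCs and listed at 0 in VN, and missed the threshold (log2 fold change 0.97, SE 0.30, limma adjusted p = 0.0191). After CHX23, CHX18 was the most abundant of all 28 in SCs, at 12.8 ± 2.75 TPM against 41.4 ± 2.54 TPM (SD, n = 3).

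**Figure D5:**
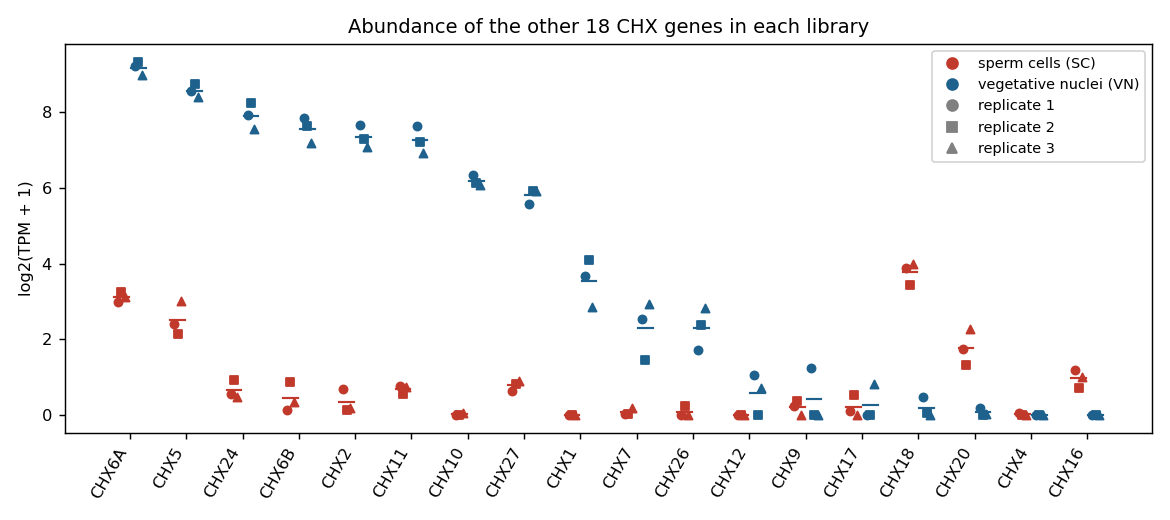
Level of the other 18 CHX genes in each library, as log2(TPM + 1), ordered by mean TPM in VN. Points are libraries (red, SCs; blue, VN; the shape gives the replicate) and bars the means of 3 libraries; 11 genes at the left were called higher in VN, and CHX18 and CHX20 towards the right were called higher in SCs.

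The other potassium and proton carriers were counted in the same way, without a test between families, beside the 29.2% of all tested genes called higher in SCs and the 35.6% called higher in VN. Among 6 KEA potassium/proton antiporters, 3 were tested, of which 1 was called higher in SCs and 1 higher in VN. KEA1, a plastid envelope antiporter, was higher in VN (18.1 ± 4.62 against 0.189 ± 0.109 TPM; log2 fold change -3.98, limma adjusted p = 9.51e-06), and KEA4, of the endomembrane group, was higher in SCs (7.28 ± 3.27 against 0.809 ± 1.31 TPM; log2 fold change 2.35, limma adjusted p = 0.00389). The call of KEA4 was lost in 7 of 14 alternatives, among them without any 1 of the SC libraries and without VN replicate 1 or 3 (highest limma adjusted p = 0.0247). KEA5 was the most abundant KEA gene in SCs, at 10.3 ± 2.67 TPM against 16.1 ± 2.19 TPM in VN, and was not called (limma adjusted p = 0.0763). Among 8 NHX sodium or potassium/proton antiporters, 5 were tested, of which 1 was higher in SCs and 2 higher in VN. NHX1, the main vacuolar one, was at 111 ± 21.6 TPM in VN and 0.590 ± 0.272 TPM in SCs (log2 fold change -6.13, limma adjusted p = 5.31e-07). The endosomal NHX5 was at 7.37 ± 3.06 TPM in SCs and 0.158 ± 0.221 TPM in VN (log2 fold change 2.80, limma adjusted p = 2.17e-04), and its partner NHX6, the most abundant NHX gene in SCs, was at 12.0 ± 3.23 against 9.74 ± 7.11 TPM and was not called (limma adjusted p = 0.403). All ± values are SDs over 3 libraries.

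Potassium channels and KUP/HAK transporters included genes called in either direction. Of 15 channel genes, 8 were tested, with 3 higher in SCs and 2 higher in VN. SPIK, the inward channel of the pollen tube, was at 375 ± 107 TPM in VN and 5.90 ± 1.15 TPM in SCs (log2 fold change -5.74, limma adjusted p = 7.32e-07). AKT5, a related channel subunit, was at 140 ± 7.69 TPM in SCs and 8.36 ± 2.45 TPM in VN (log2 fold change 3.95, limma adjusted p = 2.90e-06). Of 13 KUP/HAK transporters, 9 were tested, with 4 higher in SCs and 2 higher in VN. KUP2, known from cell expansion, was at 63.9 ± 12.2 TPM in SCs and 2.19 ± 0.951 TPM in VN, and KUP6, known from potassium export in guard cells, at 28.3 ± 3.35 against 0.0392 ± 0.0680 TPM (log2 fold change 4.37 and 4.81, limma adjusted p = 4.65e-06 and 1.55e-06). In VN, KUP5 was at 12.4 ± 2.48 TPM against 2.17 ± 0.929 TPM in SCs, and HAK5, the high-affinity uptake carrier of roots, at 10.5 ± 2.82 against 0.0158 ± 0.0274 TPM (log2 fold change -2.10 and -3.46, limma adjusted p = 5.11e-04 and 2.32e-05).

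The proton pumps of the vacuole and endosomes build the gradient that the exchangers use. Of 30 subunit and pyrophosphatase genes, 29 were tested, with 10 higher in SCs, 8 higher in VN and 11 not called. Among all tested genes, 29.2% were called higher in SCs and 35.6% higher in VN. Which direction had more calls among all genes depended on the scale, and the list was not tested against them. The median log2 fold change of the list was -0.41 against -0.55 for all tested genes. VHA-C, the single-copy C subunit, was at 1389 ± 160 TPM in SCs and 25.1 ± 3.66 TPM in VN (log2 fold change 5.74, limma adjusted p = 2.51e-07), and VHA-G1 had the largest rise in SCs, at 142 ± 28.5 against 1.18 ± 1.41 TPM (log2 fold change 6.20, limma adjusted p = 4.67e-06). VHA-a3, the vacuolar form of the membrane subunit a, was at 161 ± 9.78 TPM in VN and 1.29 ± 0.787 TPM in SCs (log2 fold change -6.20, limma adjusted p = 6.08e-07). VHA-c2, a proteolipid of the membrane ring, was the most abundant in VN at 291 ± 32.1 TPM and was at 626 ± 168 TPM in SCs (log2 fold change 1.07, limma adjusted p = 0.00262). Its call was lost in 5 of 14 alternatives, among them without SC replicate 1, SC replicate 2 or VN replicate 3 (highest limma adjusted p = 0.0162).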

How the data were processed

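Abundance was measured by Smart-seq2 RNA-seq in 3 SC and 3 VN libraries. The authors deposited TPM values per gene, which they made by mapping trimmed reads to TAIR10, assembling transcripts merged with Araport11 and quantifying that assembly with Salmon. The tools named in the submitters' processing notes are Trim Galore and Salmon. Each library sums to 1000000 TPM over 27655 genes. The paper lists total reads per cell type, which were similar for SCs and VN, but not the reads of each library. Read counts per gene are not given either, so the depth of a single library is unknown and counting errors cannot be stated. A TPM is a share of the library, so that a few very abundant genes lower all others, and reads are not assigned by strand.

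Genes that reached 1 TPM in 2 or more of 6 libraries were tested with limma 3.58.1 (R 4.3.3) on log2(TPM + 1), moderated by empirical Bayes with a trend of variance on mean (two-sided), all 6 libraries in 1 model without covariates. DE was an adjusted p under 0.01 with a log2 fold change over 1, as in the paper. The authors' normalization by trimmed mean of M-values needs counts and was not run. The procedure was tested on simulated data whose spread was taken from the SC libraries only. VN libraries correlated with each other at 0.927 to 0.938, against 0.974 to 0.976 for SC libraries, and this wider spread was not covered.

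The genes and gene lists were chosen with earlier results of these data known. The genes named are the 10, all other CHX genes, the genes overlapping one of the 10, and of each further list the most abundant in SCs and in VN and the largest rise and fall among those called.

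Gene models and sequences are from RefSeq (TAIR10.1), and the table of values holds no coordinates. Proteins were translated from coding sequences and aligned pairwise with Biopython 1.88. The motif windows are the 250 bases before each annotated gene start. Alternatives were a pseudocount of 0.1, no filter, a filter of at least 3 libraries, quantile normalization, median centring, a replicate block, no trend, each library left out, and, chosen after seeing the data, the 10 most abundant genes of each library removed.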

Additional observations from a re-analysis of the deposited data

How the results depend on the processing

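No alternative reversed the direction of a tested CHX gene. Of 313 values for 23 CHX genes over the alternatives, 298 kept direction and call, 9 lost the call and 6 gained it, and 17 of the 23 genes kept their call in all. Of the 10 genes, 6 to 8 were called in the alternatives against 7, the changes being those of CHX13, CHX19 and CHX21 given above. Leaving out a library gave 6 to 8, and 6101 to 7411 of all genes called against 7105. Among the others, CHX7 was lost when all genes above 0 were tested (limma adjusted p = 0.0125) and without SC replicate 1 or 2 (0.0110 and 0.0111), and CHX16 was gained with a pseudocount of 0.1, median centring, without SC replicate 2, or with the most abundant genes removed (0.00157, 0.00215, 0.00664 and 0.00532). Removing the most abundant genes moved the summed TPM of the 10 genes to 89.4 in SCs and 3543 in VN, and counting identical residues per length of the shorter protein moved the median identity to 29.2%. The median log2 fold change of all tested genes was -0.55, and became -0.13 with quantile normalization, -0.03 with median centring and 0.07 with the most abundant genes removed, and genes higher in SCs were then 3774, 3894 and 3879 against 3577, 3345 and 3441 higher in VN, the reverse of 3204 against 3901. With the replicate number as a block, 7 of the 10 genes and 6927 of all genes were called, and no call of the 10 changed. Deviations of same-numbered SC and VN libraries correlated at 0.0085, -0.035 and -0.019, against -0.037 to 0.051 for libraries of different number. No shared deviation was seen, but this cannot show whether same-numbered libraries came from the same pollen or sort. CHX19 and CHX21 could not be tested with the filter of at least 3 libraries. They also failed the filter without VN replicate 1 or 3 (CHX19) and without VN replicate 1 or 2 (CHX21), so each had 11 alternatives. The unknown depth limits what a value near 0 TPM says, and the order of CHX21, CHX25, CHX19 and CHX13 among themselves was not resolved by these libraries.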

Other observations

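A further gene, AT2G37910, is described in the table as a putative CHX21 and was not counted among the 28. It was at 2.29 TPM in VN replicate 1 and was listed at 0 in the other 5 libraries.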
